A study of Mus musculus with 8 samples.

Results

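The genes described here are 10 genes of the cartilage matrix, Col2a1, Col9a1, Col9a2, Col11a1, Col11a2, Acan, Comp, Matn3, Lect1 and Cytl1. They were picked by symbol, as cartilage collagens, the cartilage proteoglycan, a matrilin and secreted cartilage proteins, among the 31276 genes of the expression table, and all 10 were found there. The choice was made with earlier results of these data known. Of these, 8 passed the filter on low values that 14215 genes of the table passed, and Acan and Col9a2 did not. RNA-seq had been done on C3H10T1/2, an embryonic mesenchymal mouse line that can be driven to cartilage, bone and fat, with 1 library for each of 8 histone transgenes.

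The libraries came from cells carrying a stable transgene for histone H3 with a FLAG-HA tag, at passage 10 to 15, in DMEM with 10% fetal bovine serum and no cartilage-inducing agent named. The lysine at position 36 of the transgene was replaced by methionine in H3.3 K36M and H3.1 K36M, by isoleucine in H3.3 K36I, by alanine in H3.3 K36A, by leucine in H3.3 K36L and by arginine in H3.3 K36R and H3.1 K36R, and was kept in H3.3 WT. H3.3 and H3.1 are 2 forms of histone H3, and K36I, K36A, K36L and WT, made on H3.3 alone, are also named without it. The transgene was added to the cells' own H3 genes, of which the labels name no change, and whether a line was 1 clone or a pool is not stated. Since no transgene had a second library, lines were grouped. K36M and K36I are known to inhibit H3K36 methyltransferases, and the 3 lines that carry them were compared with the other 5. In such tests n counts lines with different transgenes, and the p-values measure only the spread between these lines, part of which may be technical.

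Cartilage owes its stiffness to a mesh of thin collagen fibrils filled with aggrecan. The fibrils are built mainly of type II collagen, whose chain Col2a1 encodes, with type XI collagen in the core, where it limits fibril width, and type IX collagen on the surface. Comp and matrilins link the fibrils to one another and to the proteoglycan. In chondrocytes the transcription factor SOX9, with SOX5 and SOX6, drives most of these genes, and C3H10T1/2 cells are widely used to follow that step in culture.

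Depth was 61139941, 68020958 and 45448249 reads in H3.3 K36M, K36I and H3.1 K36M, and 53199065 to 64093436 in the other 5. Values below are normalised reads, which are reads per gene divided by a size factor of the library, and differences are on the deposited log2 scale, which is compressed for genes with few reads. All 10 mesenchymal markers looked at (among them Pdgfra, Vim and Col1a1) passed the filter, with sums of 442569 to 523748 normalised reads in the K36M and K36I libraries and 570928 to 717267 in the others. Of them, Twist1 and Cd44 rose in the K36M and K36I libraries (log2 differences 0.47 and 0.50, limma adjusted p = 0.0189 and 0.0325). Leukocyte markers (0 of 6 past the filter, Cd52 at 0 reads throughout) and endothelial markers (0 of 5) were near background, with sums of at most 90.7 and 41.0 normalised reads in the K36M and K36I libraries and of at most 50.3 and 85.7 in the others. The share of Rn45s, a ribosomal RNA precursor, was 1.70% to 2.19% in the K36M and K36I libraries and 1.66% to 5.24% in the others, with the 2 highest shares in H3.3 K36A and H3.3 K36L.

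The promoters of 6 of these genes are printed because the genes span the patterns described below. Col11a1, Matn3 and Cytl1 were lower in every K36M or K36I library, Col11a2 was not, Acan had more than a few reads in H3.3 K36A alone, and Col9a1 was high in 3 libraries. Each runs from 250 bases before to 50 bases after the RefSeq gene start on GRCm38.p6, 5′ to 3′ on the plus strand. They lie at chr3:114030290-114030589, chr12:8947679-8947978, chr5:37735269-37735568, chr17:34038888-34039187, chr7:79052976-79053275 and chr1:24177360-24177659, in that order. Capitals mark matches, on either strand, to the SOX heptamer NNCAANG or to the TATA hexamer TNTAAA, with A or T at each N; the 2 motifs overlap nowhere in these sequences.
Col11a1 promoter: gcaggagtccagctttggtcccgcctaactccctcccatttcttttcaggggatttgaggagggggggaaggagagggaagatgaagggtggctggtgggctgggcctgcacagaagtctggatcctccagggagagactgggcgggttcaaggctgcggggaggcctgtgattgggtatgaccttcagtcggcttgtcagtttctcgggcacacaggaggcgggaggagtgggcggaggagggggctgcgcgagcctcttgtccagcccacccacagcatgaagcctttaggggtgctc
Matn3 promoter: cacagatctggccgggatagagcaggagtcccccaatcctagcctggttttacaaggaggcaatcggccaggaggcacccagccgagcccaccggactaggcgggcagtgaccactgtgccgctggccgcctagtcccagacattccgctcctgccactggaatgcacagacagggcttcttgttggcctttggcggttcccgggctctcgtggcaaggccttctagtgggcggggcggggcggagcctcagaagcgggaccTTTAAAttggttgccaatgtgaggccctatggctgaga
Cytl1 promoter: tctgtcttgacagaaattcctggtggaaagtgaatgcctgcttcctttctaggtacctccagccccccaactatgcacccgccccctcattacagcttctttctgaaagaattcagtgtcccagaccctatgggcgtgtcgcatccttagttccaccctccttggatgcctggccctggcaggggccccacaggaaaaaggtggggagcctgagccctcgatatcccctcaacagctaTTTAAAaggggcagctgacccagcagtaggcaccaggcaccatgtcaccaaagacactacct
Col11a2 promoter: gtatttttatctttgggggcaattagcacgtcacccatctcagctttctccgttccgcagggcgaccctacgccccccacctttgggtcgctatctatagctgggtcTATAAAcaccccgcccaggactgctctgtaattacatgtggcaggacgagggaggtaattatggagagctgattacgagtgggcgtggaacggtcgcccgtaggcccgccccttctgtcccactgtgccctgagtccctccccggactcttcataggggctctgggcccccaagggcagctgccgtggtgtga
Acan promoter: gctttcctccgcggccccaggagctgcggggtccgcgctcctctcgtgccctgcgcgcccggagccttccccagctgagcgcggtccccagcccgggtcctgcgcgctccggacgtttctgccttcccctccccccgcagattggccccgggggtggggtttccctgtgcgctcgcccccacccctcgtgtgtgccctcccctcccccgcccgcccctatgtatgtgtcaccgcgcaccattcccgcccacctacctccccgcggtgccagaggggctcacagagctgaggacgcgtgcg
Col9a1 upstream promoter: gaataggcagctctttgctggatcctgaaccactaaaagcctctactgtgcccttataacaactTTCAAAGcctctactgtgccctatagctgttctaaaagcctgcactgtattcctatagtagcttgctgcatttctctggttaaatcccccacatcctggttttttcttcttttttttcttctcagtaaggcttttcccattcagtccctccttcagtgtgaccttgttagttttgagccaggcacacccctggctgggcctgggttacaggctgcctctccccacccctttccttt

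RefSeq promoters were matched for 8 of the 10 genes, all but Col2a1 and Comp, and they number 9, since Col9a1 has 2. A SOX heptamer was found in 2 of the 9, the upstream Col9a1 promoter (TTCAAAG, at position -186 from the gene start) and Col9a2 (CTTTGAT, at -178), against 24.6% of all 32851 promoters of this length. A TATA hexamer was found in 3 of the 9, against 24.1% of all. It began at position -12 in Cytl1, -143 in Col11a2 and 12 in Matn3. The Acan promoter was 74.0% G and C with 31 CpG sites, more G and C than 95.2% of all promoters, whose medians were 52.7% and 7 CpG. The promoters of Col11a1 and Col11a2, which behaved unlike each other in the libraries, were 62.3% and 59.0% G and C, and neither held a SOX heptamer.

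The main fibril collagens were the most abundant of these genes and were lower in all 3 K36M and K36I libraries. Col2a1, the chain of type II collagen (chr15:97975602-98004695, minus strand), had 8719.8, 12709.7 and 10374 normalised reads in H3.3 K36M, K36I and H3.1 K36M, against 79997, 55595, 40791, 30046 and 57134 in K36A, K36L, H3.3 K36R, H3.1 K36R and WT. The groups did not overlap, and the 2 K36R libraries were the lowest of the others. The mean was 10601 ± 2005 (SD, n = 3) in the K36M and K36I libraries, 0.201 of the 52713 ± 18896 (SD, n = 5) in the others, and the log2 difference was -2.24 (SE 0.29, limma adjusted p = 0.00201). In bulk RNA, fewer cells that express a gene and less of its RNA per cell cannot be told apart.

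Col11a1, the first chain of type XI collagen (chr3:114030540-114220718, plus strand), had a log2 difference further from 0 than Col2a1, with 95% intervals of -4.37 to -2.50 and -2.90 to -1.59 that overlap. It had 5699, 4043 and 3684 normalised reads in H3.3 K36M, K36I and H3.1 K36M, against 74189, 64782, 26764, 26986 and 78965 in K36A, K36L, H3.3 K36R, H3.1 K36R and WT. The mean was 4475 ± 1075 (SD, n = 3) in the K36M and K36I libraries and 54337 ± 25584 (SD, n = 5) in the others, a log2 difference of -3.43 (SE 0.41, limma adjusted p = 0.00147). The groups did not overlap, and the others divided into a high set (K36A, K36L and WT) and a lower set of the 2 K36R libraries.

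Col11a2, the second chain of type XI collagen (chr17:34039437-34066685, plus strand), was not lower in the K36M and K36I libraries. It had 1211, 1102 and 1319.6 normalised reads in H3.3 K36M, K36I and H3.1 K36M, against 2118, 1237, 1021, 693 and 939.6 in K36A, K36L, H3.3 K36R, H3.1 K36R and WT. The K36M and K36I libraries lay inside the range of the others, and the log2 difference was 0.09 (SE 0.28, 95% interval -0.55 to 0.73, limma adjusted p = 0.870). The sign of this difference was not stable, being -0.060 without H3.1 K36R.

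Col9a1 (chr1:24177610-24252684, plus strand), a chain of type IX collagen, which has 3, split the libraries in another way. It had 459, 552 and 709.7 normalised reads in H3.3 K36M, K36I and H3.1 K36M, against 10553, 3899, 652 and 4087 in K36A, K36L, H3.3 K36R and H3.1 K36R and 869.9 in WT. High levels were seen in K36A, K36L and H3.1 K36R, while H3.3 K36R and H3.3 WT were near the K36M and K36I libraries. The groups overlapped, since H3.1 K36M exceeded H3.3 K36R. The log2 difference of -1.97 (SE 0.80) did not pass (limma adjusted p = 0.146), with a 95% interval of -3.78 to -0.16 before adjustment.

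Col9a2 (chr4:121039385-121055322, plus strand), another chain of type IX collagen, stayed below the filter and was not tested. It had 2, 8 and 4 reads, or 1.91, 6.81 and 5.26 normalised reads, in H3.3 K36M, K36I and H3.1 K36M. It had 121.6, 40.9, 22.8, 15.3 and 16.7 normalised reads in K36A, K36L, H3.3 K36R, H3.1 K36R and WT. The groups did not overlap, and K36A was the highest, as for Col9a1. The third chain, Col9a3, which is on the list of other cartilage genes and was named after its values were seen, had a log2 difference of -1.27 (SE 0.37) that did not pass (limma adjusted p = 0.0575).

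**Figure D1:**
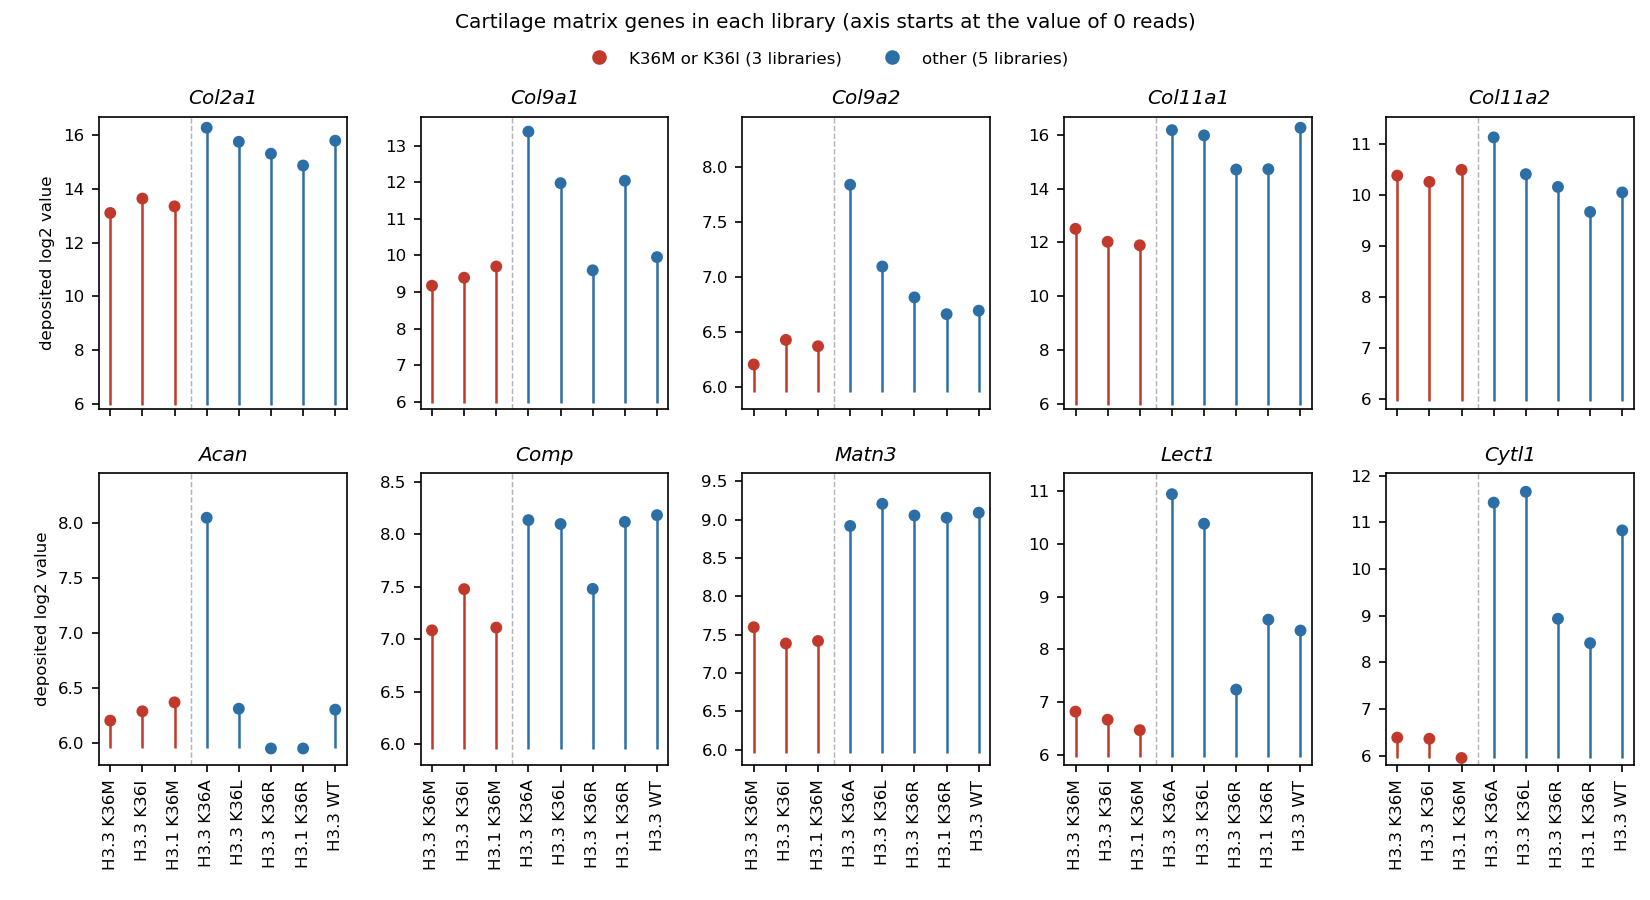
Deposited log2 value (vertical axis, starting at the value of 0 reads, with a separate range for each gene) of each of the 10 genes in each of the 8 libraries, K36M and K36I in red and the others in blue. Col2a1, Col11a1, Matn3 and Cytl1 are lower in all 3 red libraries by a wide margin, Col11a2 is not, and Acan stands out in H3.3 K36A with 155 normalised reads.

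Acan encodes the core protein of aggrecan, the proteoglycan that holds water in cartilage (chr7:79053483-79115099, plus strand). It was almost unread outside 1 library. H3.3 K36A had 162 reads (155 normalised), while H3.3 K36M, K36I and H3.1 K36M had 2, 4 and 4 reads, H3.3 K36L and H3.3 WT had 4 each, and H3.3 K36R and H3.1 K36R had 0, where a count of 0 allows up to 3 reads by a one-sided limit. The K36A library had 41.7 times the normalised reads of H3.3 WT, with an exact two-sided 95% interval of 16.0 to 155 that covers counting error only, and no replicate bears on it.

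The fibril-linking proteins were both lower in the K36M and K36I libraries, with different margins. Matn3, or matrilin-3 (chr12:8947929-8972028, plus strand), had 89.7, 66.4 and 69.7 normalised reads in H3.3 K36M, K36I and H3.1 K36M, against 367.8, 473.5, 415, 404.5 and 428 in K36A, K36L, H3.3 K36R, H3.1 K36R and WT. It was the most uniform of the 10 genes within the 5 others, with an SD of 0.10 on the log2 scale, and no library lay near the other group. The mean was 75.2 ± 12.6 (SD, n = 3) in the K36M and K36I libraries, 0.180 of the 418 ± 38.4 (SD, n = 5) in the others. The log2 difference was -1.59 (SE 0.10, limma adjusted p = 9.90e-05), which put it at rank 16 by p among the 14215 genes.

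Comp, the cartilage oligomeric matrix protein, which binds several fibril collagens (chr8:70373558-70382066, plus strand), had 40.1, 75.7 and 42.1 normalised reads in H3.3 K36M, K36I and H3.1 K36M. It had 170.5, 163.7, 76.0, 167 and 179 in K36A, K36L, H3.3 K36R, H3.1 K36R and WT. H3.3 K36R stood apart from the other 4 of its group, and H3.3 K36I lay below it by less than 1 normalised read. The log2 difference of -0.78 (SE 0.18) passed by a small margin (limma adjusted p = 0.0258). It no longer passed without any one of H3.3 K36M, H3.1 K36M, H3.3 K36A, H3.3 K36L or H3.3 WT (adjusted p = 0.102, 0.0624, 0.0543, 0.0582 and 0.0651).

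Lect1, also called Cnmd, encodes chondromodulin, a glycoprotein of avascular cartilage that inhibits blood vessel growth (chr14:79637690-79662170, minus strand). It had 22.9, 15.3 and 7.89 normalised reads in H3.3 K36M, K36I and H3.1 K36M, against 1852, 1217, 52.2, 264.6 and 216 in K36A, K36L, H3.3 K36R, H3.1 K36R and WT. The groups did not overlap, but the others spanned 35.5 times from lowest to highest, with K36A and K36L on top. The log2 difference of -2.45 (SE 0.77) did not pass (limma adjusted p = 0.0712). On the scale of log2(normalised reads + 1) it was -4.61 and passed (adjusted p = 0.0239), and on the deposited scale it passed without H3.3 K36R (adjusted p = 0.0282).

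Cytl1, a small secreted cytokine-like protein found in cartilage (chr5:37735519-37739820, plus strand), had the largest log2 difference of the 8 genes tested. It had 6, 6 and 0 reads, or 5.73, 5.10 and 0 normalised reads, in H3.3 K36M, K36I and H3.1 K36M. K36A, K36L, H3.3 K36R, H3.1 K36R and WT had 2629, 3110.04, 374, 228.5 and 1699 normalised reads. The K36M and K36I libraries were all within a few reads of 0, and the 2 K36R libraries lay far below WT, K36A and K36L. Cytl1 thus passed the filter only through the libraries without K36M or K36I. The log2 difference was -4.02 (SE 0.75, limma adjusted p = 0.00965).

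Together, 5 of the 8 genes tested fell in the K36M and K36I libraries (Col2a1, Col11a1, Comp, Matn3 and Cytl1) and 0 rose, where 6.82% of all 14215 genes fell. As the genes were chosen with earlier results of these data known, the shares over all genes here are a description and no test of the list. Of the 8, Cytl1 and Lect1 passed the filter only through the libraries without K36M or K36I. Their average log2 values in the K36M and K36I libraries, 6.24 and 6.65, were less than 1 above the 5.95 of 0 reads. The median log2 difference was -2.10 over the 8 genes and -0.01 over all genes tested. In 6 of the 8, every K36M and K36I library was below every other library, as in 11.5% of the genes tested. For Comp, among the 6, this rested on 75.7 normalised reads in K36I against 76.0 in H3.3 K36R, within counting error. Col9a2, below the filter and so outside that share, brought the number to 7 of all 10. Summed over the 10 genes, the libraries had 16252, 18579 and 16217 normalised reads in H3.3 K36M, K36I and H3.1 K36M, against 172154, 130522, 70168, 62892 and 140452 in K36A, K36L, H3.3 K36R, H3.1 K36R and WT, most of them from Col2a1 and Col11a1. Without H3.3 K36A and H3.3 K36L, the libraries with most Rn45s, 4 of the 8 genes fell, Comp being the one lost (adjusted p = 0.119).

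**Figure D2:**
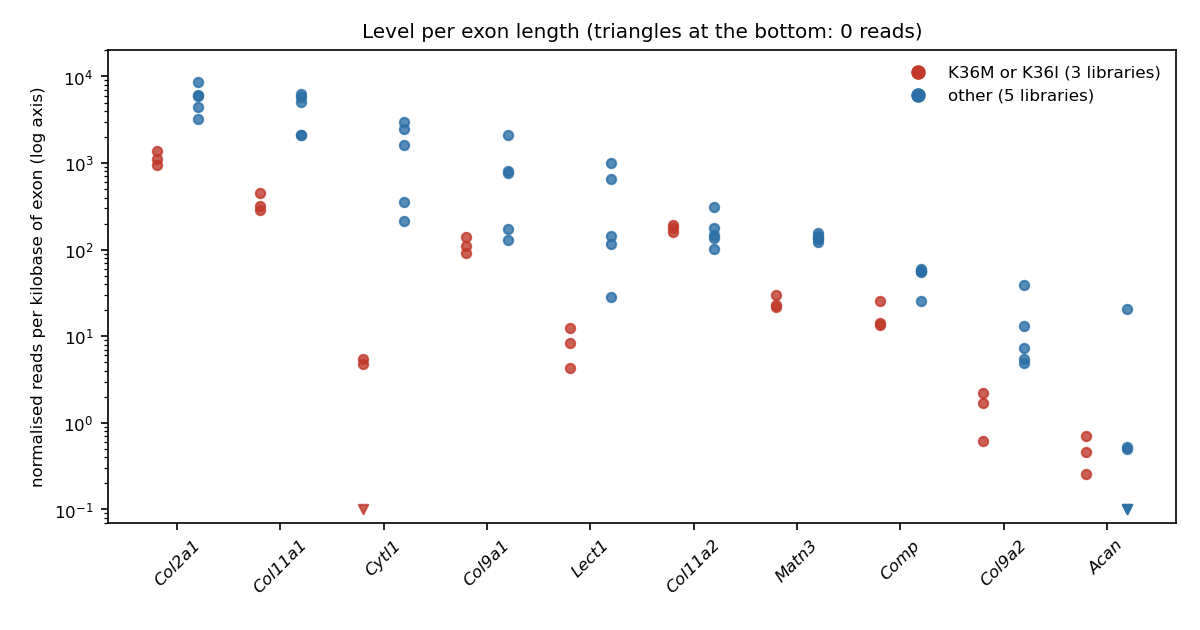
Normalised reads per kilobase of exon (log axis) of the 10 genes, ordered by their mean in the 5 other libraries. Red points are the 3 K36M and K36I libraries, blue points the 5 others, and triangles stand for 0 reads; in the blue libraries Cytl1 follows the fibril collagens, and in the red it is near the bottom.

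Per kilobase of exon, on GENCODE M21 exon lengths, the order of the genes differed between the groups. Col2a1 averaged 1147 ± 217 normalised reads per kilobase (SD, n = 3) in the K36M and K36I libraries and 5703 ± 2044 (SD, n = 5) in the others. Col11a1 averaged 351 ± 84.4 in the K36M and K36I libraries and 4264 ± 2008 in the others, and it differed from Col2a1 by more than their spread in the K36M and K36I libraries but not in the others. Cytl1 averaged 3.42 ± 2.98 per kilobase in the K36M and K36I libraries and 1523 ± 1229 in the others, where it followed the fibril collagens. In the K36M and K36I libraries Col11a2 (176 ± 15.8) and Col9a1 (113 ± 25) took the places after Col11a1. In the others Col9a1 (792 ± 789), Lect1 (391 ± 424) and Col11a2 (175 ± 79.7) did not differ beyond their spread. Matn3 (24.96 ± 4.19 in the K36M and K36I libraries, 139 ± 12.7 in the others) and Comp (17.7 ± 6.75 in the K36M and K36I libraries, 51.0 ± 14.3 in the others) came next, ahead of Lect1 (8.34 ± 4.07) and Cytl1 in the K36M and K36I libraries alone. Col9a2 and Acan were lowest in both groups, at 1.505 ± 0.81 and 0.47 ± 0.22 per kilobase in the K36M and K36I libraries and 14.05 ± 14.5 and 4.36 ± 9.18 in the others. No exon of the 10 genes overlaps an exon of another annotated gene.

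Within H3.3 alone, 4 of the 8 genes fell in K36M and K36I against K36A, K36L, K36R and WT, where 9.33% of all genes fell. Col2a1 differed by -2.42 (SE 0.27), Col11a1 by -3.52 (SE 0.43), Matn3 by -1.58 (SE 0.12) and Cytl1 by -4.34 (SE 0.71) on the log2 scale, with limma adjusted p of 0.00240, 0.00333, 7.59e-04 and 0.00873. Comp (-0.69, SE 0.23, adjusted p = 0.0823), Lect1 (-2.49, SE 0.99, adjusted p = 0.132), Col9a1 (-1.94, SE 1.02, adjusted p = 0.232) and Col11a2 (-0.12, SE 0.29, adjusted p = 0.818) did not pass. These 6 libraries are part of the 8 above, so the fit is no separate replicate of it. Here too Cytl1 and Lect1 were past the filter only through the libraries without K36M or K36I.

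K36M and K36R were each made on both histones, and there the same 4 genes, Col2a1, Col11a1, Matn3 and Cytl1, fell in K36M, where 4.50% of all genes were called in either direction. Col11a1 differed by -2.52 (SE 0.19, limma adjusted p = 0.0135) and Cytl1 by -2.50 (SE 0.17, adjusted p = 0.0111) on the log2 scale. Cytl1 had 6 and 0 reads in H3.3 K36M and H3.1 K36M, and passed the filter only through the libraries without K36M or K36I. Col2a1 differed by -1.87 (SE 0.21, adjusted p = 0.0254) and Matn3 by -1.53 (SE 0.17, adjusted p = 0.0236). For Col11a1 the pair on H3.1 differed by -2.83 (3684 normalised reads in K36M, 26986 in K36R) and the pair on H3.3 by -2.21 (5699 in K36M, 26764 in K36R). With 2 libraries a side the fit has few degrees of freedom, and without the filter on low values 0 of the 10 genes passed.

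**Figure D3:**
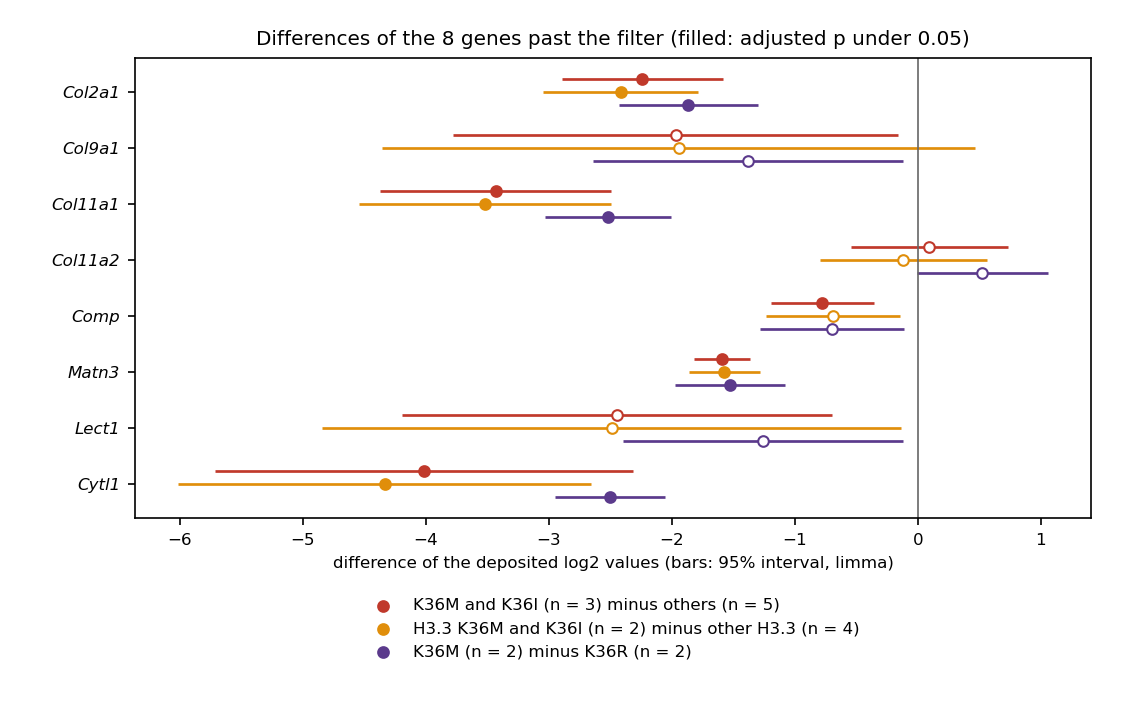
Log2 differences (horizontal axis, with 95% limma intervals as bars) of the 8 genes past the filter in 3 comparisons that share libraries, with filled points where the adjusted p is under 0.05. Col2a1, Col11a1, Matn3 and Cytl1 are filled and below 0 in all 3 comparisons, and Col11a2 lies around 0 in the first 2.

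No difference between the 2 histones passed for these genes, within wide intervals. H3.1 against H3.3, with K36M and K36R on each, gave 0 of the 8 genes, where 0.0844% of all genes were called. At an unadjusted limma p under 0.05 there were 2 of the 8 genes and 1767 of all 14215. The 2 were Col9a1, higher on H3.1 by 1.49 (SE 0.47, limma adjusted p = 0.359), and Cytl1, lower on H3.1 by a log2 difference of -0.48 (SE 0.17, adjusted p = 0.382). For Col2a1 the 95% interval of this difference ran from -0.66 to 0.47, and for Matn3 from -0.55 to 0.34. The test of whether the class difference itself depended on the histone gave 0 of the 8 genes by limma, also at an unadjusted p under 0.05, and 0% of all genes (1582 at an unadjusted p under 0.05). Its intervals were wide, from -0.31 to 2.10 for Col2a1 and from -1.34 to 5.09 for Cytl1.

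Each mutant was next set against H3.3 WT, 1 library a side and so without a test, counting genes whose log2 values differed by at least 1. These 7 differences share the 1 WT library. H3.1 K36M and H3.1 K36R differ from it in histone as well as in substitution, and with no H3.1 WT library the parts of each cannot be told apart. H3.3 K36M had 6 of the 8 genes past that size, all lower, where 8.69% of all genes tested were past it in either direction. H3.3 K36I had 5, all lower (all genes 7.63%), and H3.1 K36M had 6, all lower (all genes 10.3%). The 6 genes of the K36M libraries were Col2a1, Col11a1, Comp, Matn3, Lect1 and Cytl1, and in K36I Comp differed by -0.70. Of these, Lect1 and Cytl1 passed the filter only through the libraries without K36M or K36I. Col11a2 was slightly above WT in all 3, by 0.33, 0.21 and 0.44.

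H3.3 K36A had 3 of the 8 genes past that size, all higher (all genes 2.08%), namely Col9a1 by 3.43, Lect1 by 2.59 and Col11a2 by 1.08. Col9a2 and Acan, below the filter, were also higher in K36A than in WT, by 1.14 and 1.74. H3.3 K36L had 2, Lect1 by 2.03 and Col9a1 by 2.02 (all genes 1.03%). K36A was the highest of the 8 libraries for 6 of the 10 genes (Col2a1, Col9a1, Col9a2, Col11a2, Acan and Lect1), of which Acan and Col9a2 were below the filter. Among genes past the filter it was the highest for 4 of these 8 genes, for 4 of 10 other cartilage matrix genes and for 9.08% of all. Col11a1 and Comp were highest in WT, and Matn3 and Cytl1 in K36L. H3.3 K36A also had the largest share of Rn45s reads, 5.24%, and its part in these values was not tested.

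H3.3 K36R and H3.1 K36R, compared with WT, were mixed. H3.3 K36R had 3 of the 8 genes past a difference of 1, all lower (all genes 1.76%), namely Cytl1 by -1.89, Col11a1 by -1.56 and Lect1 by -1.12. H3.1 K36R had 3 as well (all genes 3.33%), with Cytl1 (-2.42) and Col11a1 (-1.54) lower and Col9a1 (2.09) higher. Col11a1 was thus about equally low in both K36R libraries, whereas Col9a1 and Lect1 were not, with 4087 and 264.6 normalised reads in H3.1 K36R and 652 and 52.2 in H3.3 K36R.

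**Figure D4:**
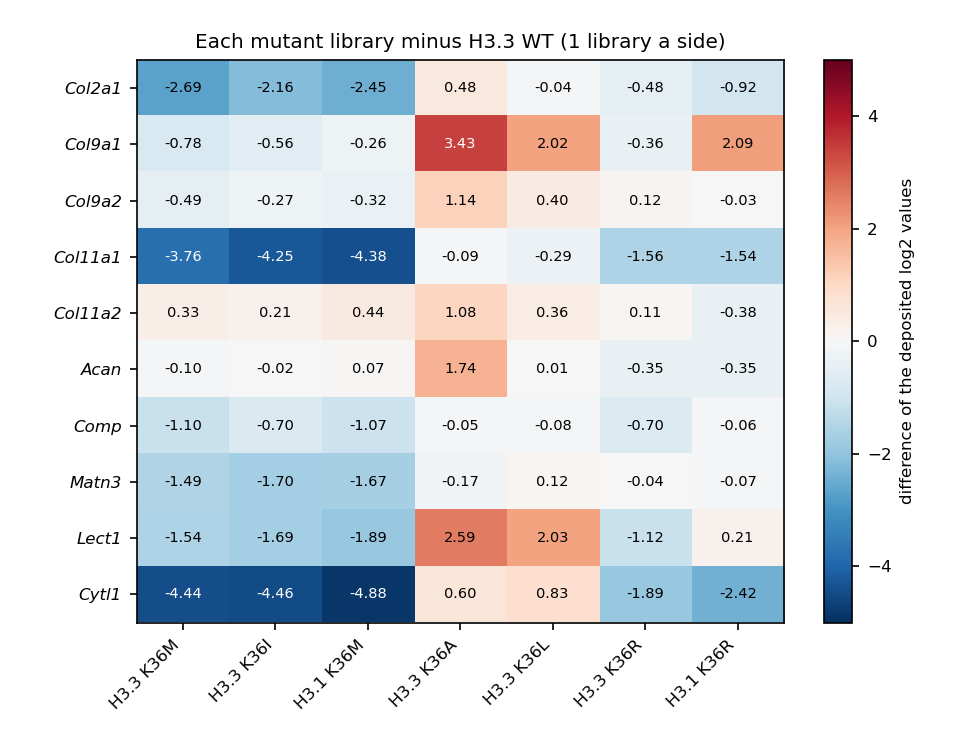
Log2 value of each mutant library minus H3.3 WT for the 10 genes (rows), on a colour scale from blue (lower than WT) to red (higher than WT), with 1 library a side. The 3 left columns, K36M and K36I, are blue for Col2a1, Col11a1, Comp, Matn3, Lect1 and Cytl1; Col9a1 reaches 3.43 in K36A.

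The 8 genes past the filter were also compared by how their log2 values, centred on each gene's mean, ran over the 8 libraries, using the root mean square distance as a description with no test. Comp and Matn3 were nearest to each other (distance 0.48), as were Col9a1 and Lect1 (0.64) and Col11a1 and Cytl1 (0.64). Col2a1 was nearest to Matn3 (0.54) and Col11a2 to Comp (0.61). The distances of Comp and Col11a2 exceeded the SD of their own values (0.44 and 0.39), so for them the nearest of these genes was not close. Among all other genes past the filter, the nearest to Col2a1 were Fzd9, a Wnt receptor (0.12), Wwp2, a ubiquitin ligase whose gene hosts a microRNA of cartilage (0.27), and Papss2, which makes the sulphate donor for proteoglycans (0.29). Fzd9 had 9.54, 32.3 and 21.0 normalised reads in H3.3 K36M, K36I and H3.1 K36M and 238 to 579 in the others, so its levels lay far below those of Col2a1. Its mean in the K36M and K36I libraries was 0.0497 of that in the others, against 0.201 for Col2a1, so nearness on the compressed log2 scale is not likeness in fold. The nearest to Cytl1 were Fry (0.38), Sox6 (0.57) and Nebl (0.65). Sox6 had 36.3, 20.4 and 15.8 normalised reads in H3.3 K36M, K36I and H3.1 K36M, against 2239, 2834, 397, 981 and 2411 in K36A, K36L, H3.3 K36R, H3.1 K36R and WT. The nearest to Matn3 were Shroom4 (0.11), Osgin2 (0.14) and Cyp2j6 (0.14), and the nearest to Comp were Abca1 (0.13), Zfp395 (0.15) and Pkn3 (0.15).

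Lists of related genes give the setting, and they too were chosen with earlier results of these data known. Of all 14215 genes tested in the same comparison, 970 (6.82%) fell and 917 rose. Of 20 regulators of chondrocytes, 11 passed the filter, 8 fell in the K36M and K36I libraries and 0 rose, with a median log2 difference of -1.92. Sox9, the main activator of the fibril collagen genes, averaged 817 ± 243 normalised reads (SD, n = 3) in the K36M and K36I libraries and 3509 ± 605 (SD, n = 5) in the others, a log2 difference of -1.97 (SE 0.19, limma adjusted p = 5.89e-04). Sox5 stayed below the filter and was not tested, with 63.4 normalised reads in H3.1 K36R and at most 8.55 in any other library. Sox6 fell by 3.81 (limma adjusted p = 0.00298) and Sox8 by 1.92 (adjusted p = 0.00337) on the log2 scale. Sox8 had 1.91, 3.40 and 0 normalised reads in H3.3 K36M, K36I and H3.1 K36M and 45.9 to 241 in the others. Its log2 difference is therefore compressed and not to be set beside that of Sox9 as a fold. Sox6 and Sox8 averaged 24.2 and 1.77 normalised reads in the K36M and K36I libraries, and passed the filter only through the others. The receptors Pth1r and Fgfr3 fell by 2.25 and 2.07 on the log2 scale (adjusted p = 0.0186 and 0.0299). Mef2c, a transcription factor of maturing chondrocytes, fell by 2.22 (adjusted p = 0.0225).

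Of 24 other cartilage matrix genes, 10 passed the filter, 3 fell and 0 rose (median -1.20). These were Prelp and Fmod, small leucine-rich proteoglycans that bind collagen fibrils, and Susd5. Prelp averaged 776 ± 335 normalised reads (SD, n = 3) in the K36M and K36I libraries and 10856 ± 1601 (SD, n = 5) in the others, a log2 difference of -3.69 (SE 0.25, limma adjusted p = 1.21e-04). Susd5 and Fmod differed by -3.16 and -2.005 (adjusted p = 2.98e-04 and 6.23e-04). Of 20 genes that process or assemble the matrix, all 20 passed the filter, 6 fell and 0 rose (median -0.33). Leprel1, a collagen prolyl 3-hydroxylase, fell by 2.86 on the log2 scale (limma adjusted p = 7.27e-04), from 292 to 825 normalised reads in the others to 6.81 to 18.4. Leprel1 thus passed the filter only through the libraries without K36M or K36I. Papss2 and the chondroitin sulphotransferases Chst11 and Chst3 fell too (log2 differences -1.97, -1.91 and -0.95, adjusted p = 0.00354, 0.00590 and 0.0215). Creb3l2, which raises the secretory capacity of chondrocytes, and the collagen chaperone Serpinh1 fell by 0.58 and 0.43 (adjusted p = 0.0392 and 0.00741). Of 16 matrix proteases and their inhibitors, 12 passed the filter, 4 fell and 0 rose (median -0.15). Adamts12, Adamts1, Adamts5 and Mmp2 had log2 differences of -2.34, -1.83, -1.13 and -0.49 (limma adjusted p = 0.00167, 0.0416, 0.00769 and 0.0228). For Adamts1 the groups overlapped, with 27301 normalised reads in H3.3 K36I and 21727 in H3.1 K36R.

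**Figure D5:**
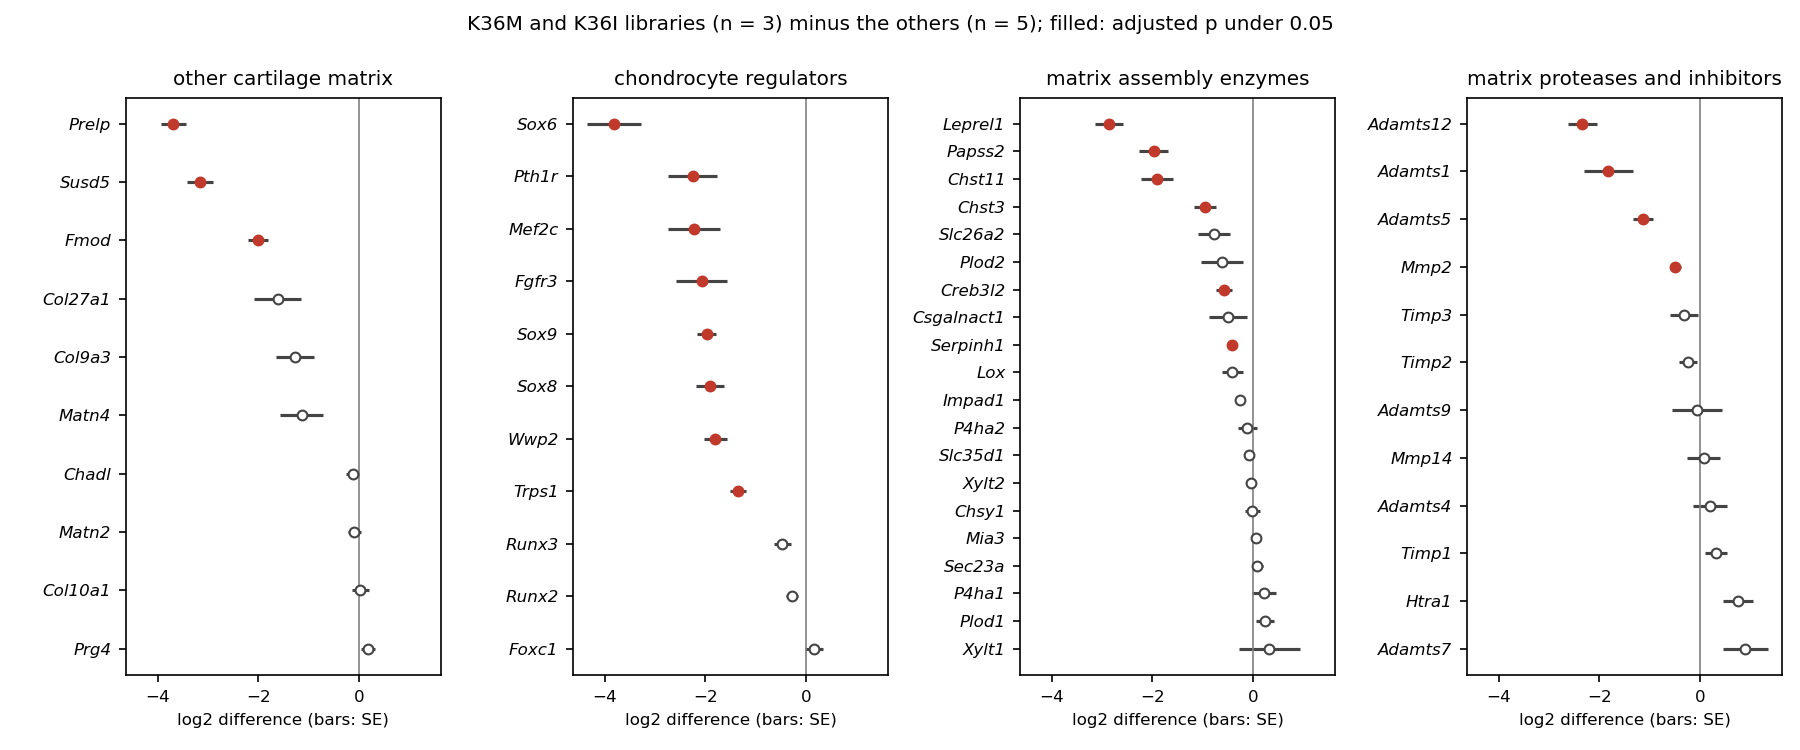
Log2 differences of the K36M and K36I libraries minus the others (horizontal axis, bars are SE) for the genes past the filter of 4 related lists, filled where the limma adjusted p is under 0.05. All filled points lie below 0, with 8 of 11 chondrocyte regulators, 3 of 10 other cartilage matrix genes, 6 of 20 matrix assembly genes and 4 of 12 proteases and inhibitors filled. Of all genes tested, 6.82% fell.

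Some markers of neighbouring mesenchymal cell types moved as well, in both directions, and their part in the results above was not tested. Of 4 tendon markers 3 passed the filter, with sums of 3604 to 4833 normalised reads in the K36M and K36I libraries and 4691 to 7890 in the others. Tnmd, the closest relative of Lect1, averaged 555 ± 283 normalised reads (SD, n = 3) in the K36M and K36I libraries and 4454 ± 1211 (SD, n = 5) in the others. It fell by 2.82 on the log2 scale (limma adjusted p = 0.00130), while Scx rose by 1.36 (adjusted p = 0.0149). Mkx did not pass (log2 difference 0.15, adjusted p = 0.825). Of 6 osteoblast markers 1 passed, Alpl, which fell by 1.73 (adjusted p = 0.0267). Alpl averaged 22.6 normalised reads in the K36M and K36I libraries and passed the filter only through the others. The osteoblast list had sums of 35.7 to 63.0 normalised reads in the K36M and K36I libraries and 103 to 662 in the others. Adipocyte markers (1 of 5 past the filter, Plin1 and Lep at 0) and skeletal muscle markers (2 of 5) had sums of at most 57.8 and 460 in the K36M and K36I libraries and of at most 113 and 321 in the others. None of these adipocyte and muscle markers was called. Of 5 epithelial markers 2 passed, neither called, with sums of 719 to 1757 normalised reads in the K36M and K36I libraries and 563 to 7846 in the others.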

How the data were processed

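RNA-seq libraries were made from total RNA of C3H10T1/2 cells extracted with Trizol, by Illumina's TruSeq procedure, per the labels. DESeq2, featureCounts 1.4.4, STAR 2.3.0e and Trimmomatic 0.32 and the build mm10 appear in the submitters' processing notes. Not given in the sources used here are how they were run, with which annotation and whether by strand. The deposited log2 values are reads per gene after a variance-stabilising transformation by the authors with 1 size factor per library and no length correction, as the description in the labels and the values show. Inverting it gave whole reads for 100% of values, within 0.001 reads (largest deviation 1.55e-07), and so the depth of each library, 45448249 to 68020958 reads. Intervals of reads cover counting error only.

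A gene was tested if its average log2 value exceeded that of 0 reads (5.95) by 1 or more, about 31.0 normalised reads. The tests used limma 3.58.1 in R 4.3.3 on the deposited scale, two-sided, with an intensity trend and Benjamini-Hochberg adjustment over all 14215 genes at 0.05. K36M against K36R had histone as a term, and H3.1 against H3.3 had substitution. The fits were tested on simulated data. The genes and lists were chosen with earlier results of these data known. Of 80 listed context genes, 78 were found. Named were all 10 genes, up to 6 called genes of each context list by size, and the nearest genes by distance for Col2a1, Comp, Matn3 and Cytl1 (Acan was below the filter). Vim, Pdgfra, Col1a1, Rn45s, Col9a3, Sox5 and the other marker genes were named after their values were seen. Coordinates and exon lengths come from the M21 release of GENCODE (GRCm38, which mm10 represents). Alternatives covered the filter, scaling, log scale, variance model, weights, covariates and each library left out.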

Additional observations from a re-analysis of the deposited data

Results flagged for a closer look

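Acan stood apart in H3.3 K36A, at a log2 value of 8.05 (155 normalised reads), far above the other 4 libraries without K36M or K36I, which had 0 to 3.90 normalised reads.

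Comp stood apart in H3.3 K36R, at a log2 value of 7.48 (76.0 normalised reads), far below the other 4 libraries without K36M or K36I (164 to 179 normalised reads). The same library was also apart when only the 4 H3.3 libraries of that group were compared, again at 7.48. These are 3 of 20 such comparisons over the 10 genes, and chance marks about 1 group in 20. Both Comp flags rest on the same gap, since the 4 H3.3 libraries are part of the larger group, so the 20 comparisons are not separate. Their cause was not tested.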

How the results depend on the processing

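Col2a1, Col11a1, Matn3 and Cytl1 kept their direction and passed in all 18 alternatives of the class comparison, at log2 differences of -2.48 to -1.96, -3.65 to -3.10, -2.47 to -1.54 and -8.23 to -3.16. Comp was lost in 8 of 17, among them no filter on low values (adjusted p = 0.0864). Lect1 passed in 4 of 18. The alternative with K36L left out of its class is the same fit as that without the H3.3 K36L library, so these counts hold it more than once. Col11a2 turned to -0.060 without H3.1 K36R, the fits with a library left out running from -0.060 to 0.31. The genes called numbered 4 to 6 in the class comparison and 3 to 6 within H3.3, also over fits that left out 1 library. K36M against K36R gave 0 of the 10 genes, and 0 of all 31276, without a filter and 4 under its other alternatives; leaving out a library there leaves no residual degrees of freedom. H3.1 against H3.3 and the dependence on histone gave 0 throughout. Of 56 differences from H3.3 WT, 28 were past 1, as were 28 with library medians set equal and 30 each on log2(normalised reads + 1) and + 10. The added ones on log2(normalised reads + 1) were Comp in K36I (-1.23) and in H3.3 K36R (-1.23). By more than counting error, 5, 21 and 20 of the 56 moved under these 3 settings, and 0 of those past 1 changed sign. No paired analysis was possible because each transgene has 1 library and so no replicate numbers pair the lines; K36M and K36R were matched by histone through the histone term. Acan and Col9a2 had too few reads to pass the filter.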
